A study of Mus musculus with 4 samples.

Results

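The integrated stress response was described by 10 genes, *Atf4*, *Ddit3*, *Asns*, *Trib3*, *Chac1*, *Psat1*, *Phgdh*, *Sesn2*, *Ppp1r15a* and *Eif2ak4*, chosen by symbol and all found among 22063 genes listed. They were measured by RNA-sequencing in 4 libraries of TKPTS cells, a mouse renal proximal tubular line that the sample labels call TKPT. Of these libraries, 2 are labelled scrambled siRNA with the genotype WT (si-NC, replicates 2 and 3) and 2 are labelled *Itgb6* siRNA with the genotype *Itgb6* knockdown (si-*Itgb6*, replicates 1 and 3). *Itgb6* encodes the β6 subunit of integrin αvβ6. Every culture, si-NC included, went through siRNA transfection, 24 h at 1% O2 and then 12 h back in normal oxygen. No culture kept in normal oxygen is among these libraries, so each level below is a level after reoxygenation with no unstressed reference. The labels do not say whether these libraries come from separate cultures, and the study's general remark on independent repeats does not name them. The p-values therefore measure the spread between these libraries, which may be technical. In the main test below, the spread of a gene is estimated in part from all genes tested. A gene whose own libraries lie far apart can thus have a narrower interval than those libraries alone would give.

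In the integrated stress response, kinases that sense a stress phosphorylate the translation initiation factor eIF2α, which lowers protein synthesis in general while the mRNA of *Atf4* is translated more. ATF4 is a transcription factor that switches on genes for making, importing and charging amino acids, and its partner CHOP, the product of *Ddit3*, is linked to cell death when stress persists. In renal tubular cells the response is known from ischemia-reperfusion injury and endoplasmic reticulum stress. ATF4 and eIF2α are controlled largely at the protein, and neither protein amounts nor phosphorylation were measured here.

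Library totals were 15435080 to 17220286 estimated counts. The count of *Itgb6* was 285 and 284 in si-NC replicates 2 and 3, and 279 and 260 in the libraries labelled si-*Itgb6*, replicates 1 and 3, in the same order as all values below. Its log2 fold change was -0.0051 (SE 0.13, adjusted p = 0.991), so no fall of its mRNA was detected, and the name si-*Itgb6* stands for the label throughout. Of 10 proximal tubule markers, *Slc34a1*, *Slc5a2* and *Slc22a6* were at 0 counts in all libraries and *Hnf4a* had at most 1 count, while the renal epithelial factor *Pax8* had 4682 to 5884 counts. The summed level of 5 macrophage and leukocyte markers was 141 to 151 CPM (normalized counts scaled to a common library size) in si-NC and 132 to 135 CPM in si-*Itgb6*, with *Ptprc* and *Adgre1* at no more than 6 counts in any library but *Cd68* at 1534 to 1968, *Csf1r* at 365 to 468 and *Cd14* at 137 to 190 counts. The share of counts from genes of the mitochondrial genome was 2.46% and 2.55% in si-NC and 2.96% and 2.91% in si-*Itgb6*, and across genes the log2 fold change fell with GC content (Spearman rho -0.364). Calls among the 10 genes and the wider response, and that of *Hspa5*, were repeated after correction for GC content and length. The part of the other shifts in the results below was not tested.

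ATF4 binds a composite element, here searched as TGATGNAA on both strands, and the stretches that hold a match are shown because these genes can be set beside those without one. Promoter windows of RefSeq (GRCm38.p6, 250 bases before to 50 after the start) were found for all 10 genes, 12 windows in all, with 2 each for *Psat1* and *Eif2ak4*. The element was found in 3 of the 12 windows, those of *Asns*, *Chac1* and *Trib3*, and in 3.97% of 32851 mouse windows. *Ddit3* is shown because it alone among the 10 genes passed the test below; its window holds no match to these letters, which says nothing of the factor. Capitals mark the ATF4 element and CCAAT, which 6 of the 12 windows and 37.4% of all windows hold, each as read on the gene's strand, where a match on the other strand appears as its reverse complement.
*Asns*, chr6:7693210-7693359, minus strand, -150 to -1 from the start: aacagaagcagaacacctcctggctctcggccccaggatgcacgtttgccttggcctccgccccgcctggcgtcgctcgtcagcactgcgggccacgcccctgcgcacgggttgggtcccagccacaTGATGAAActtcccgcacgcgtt
*Chac1*, chr2:119350992-119351141, plus strand, -250 to -101: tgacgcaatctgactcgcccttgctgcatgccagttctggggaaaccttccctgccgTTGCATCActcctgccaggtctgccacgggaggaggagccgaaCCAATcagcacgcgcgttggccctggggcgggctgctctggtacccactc
*Trib3*, chr2:152344028-152344057, minus strand, 4 to 33 after the start: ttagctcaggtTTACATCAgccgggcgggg
*Ddit3*, chr10:127290643-127290792, plus strand, -150 to -1: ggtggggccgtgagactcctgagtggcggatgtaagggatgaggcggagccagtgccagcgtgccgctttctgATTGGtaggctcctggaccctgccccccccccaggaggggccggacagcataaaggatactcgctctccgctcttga
Counted from the RefSeq start, the element began at position -23 in *Asns* and -193 in *Chac1*, and lay at 15 to 22 in *Trib3*. The outermost starts in GENCODE vM21 (GRCm38) are at 7693254 for *Asns* and 152344032 for *Trib3*, both on the minus strand. By those starts the element lies after the start in *Asns* and before it in *Trib3*, so the side depends on the annotation. No match of one motif overlapped a match of another. The cyclic AMP element TGACGTCA was found in the window of *Ppp1r15a* alone among the 10 genes, at -12 to -5 (1.79% of all windows), and the AP-1 letters TGANTCA in that of *Ddit3* alone, at -242 to -236 (7.81% of all windows). Among all genes tested with a promoter window, the 242 that hold the ATF4 element counted 7 calls of lower and 4 of higher around a median of 0.0011 on the log2 scale, beside 239 and 197 calls and a median of -0.00015 over 9336 genes with any window.

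The levels of the 10 genes after reoxygenation spanned more than 2 orders of magnitude in FPKM, a level per transcript length and library size that the authors made. *Atf4* itself stood highest with 737 ± 25.4 FPKM (SD, n = 4 libraries of both groups), a level above that of 99.0% of the 11727 genes tested. The serine synthesis enzyme *Phgdh* followed with 436 ± 8.28 FPKM, then asparagine synthetase *Asns* with 257 ± 12.0 FPKM and *Psat1*, the next enzyme of serine synthesis, with 209 ± 8.99 FPKM. *Trib3* was at 196 ± 9.78 FPKM, *Ddit3* at 125 ± 13.6 FPKM and *Ppp1r15a* at 123 ± 3.53 FPKM. These 7 genes lay above at least 94.5% of the genes tested.
The remaining 3 genes were far lower. *Chac1* was at 10.9 ± 0.763 FPKM, 11.4-fold below *Ppp1r15a*. Its window holds the ATF4 element, as do those of *Asns* and *Trib3*, which stood far higher. *Eif2ak4* was at 5.58 ± 1.14 FPKM and *Sesn2* at 4.04 ± 0.462 FPKM, the latter above 32.4% of the genes tested. The order was not settled beyond the spread over libraries for *Psat1* and *Trib3*, for *Ddit3* and *Ppp1r15a*, and for *Eif2ak4* and *Sesn2*, whose ranges overlapped. *Ddit3* had 134 and 139 FPKM in si-NC against 129 and 122 FPKM for *Ppp1r15a*, while in si-*Itgb6* it had 111 and 116 FPKM against 121 and 122 FPKM, so the pair stood in opposite order in the groups. With 4 libraries no ranking of other genes by likeness of pattern was made.

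**Figure D1:**
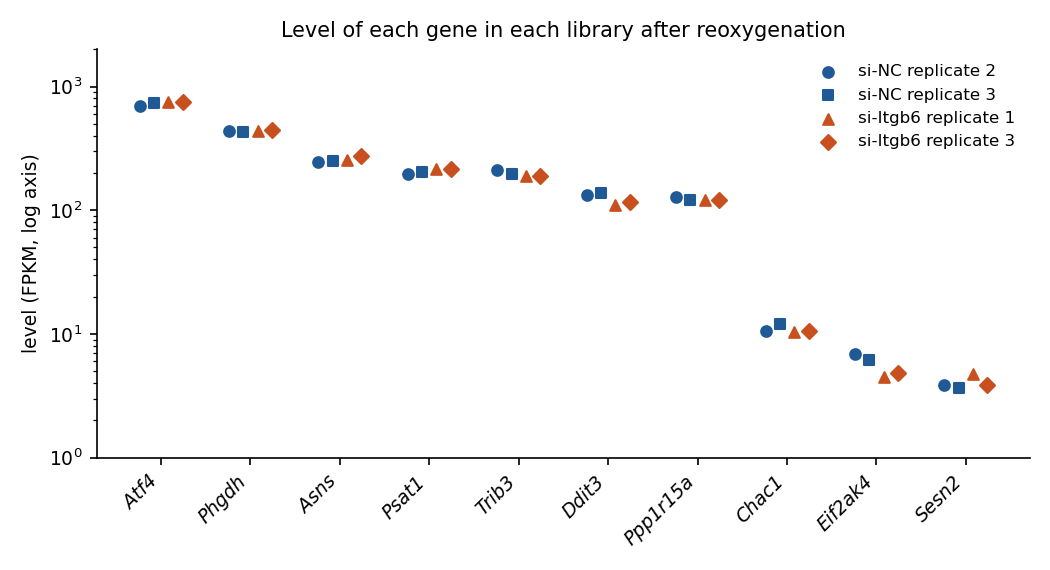
Level (FPKM, log axis) of each of the 10 genes in each library, from the highest mean to the lowest, with si-NC libraries in blue and si-*Itgb6* libraries in orange. A gap of 11.4-fold separates *Ppp1r15a* from *Chac1*, while the libraries of *Psat1* and *Trib3*, of *Ddit3* and *Ppp1r15a*, and of *Eif2ak4* and *Sesn2* overlap.

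To learn whether the response differed between the groups, the counts of all 11727 genes were compared with edgeR's quasi-likelihood test, with p-values adjusted over all of them. *Ddit3* was lower in si-*Itgb6* and passed the test, and the other 9 genes did not pass it. A call of lower at an adjusted p under 0.05 was made for 2.52% of all genes tested and a call of higher for 2.11%, beside 1 and 0 of the 10 genes here. The median log2 fold change of the 10 genes was 0.013, with 5 below and 5 above 0 and a range from -0.27 to 0.20, and that of all genes tested was 0.00017. The groups did not overlap for 3 genes that were lower (*Ddit3*, *Trib3* and *Eif2ak4*) and 5 that were higher (*Atf4*, *Asns*, *Psat1*, *Phgdh* and *Sesn2*) in si-*Itgb6*, while 25.4% and 23.8% of all genes tested were lower or higher without overlap. With 2 libraries a group, the smallest p of an exact two-sided permutation test is 0.333, so no gene can be called that way.

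**Figure D2:**
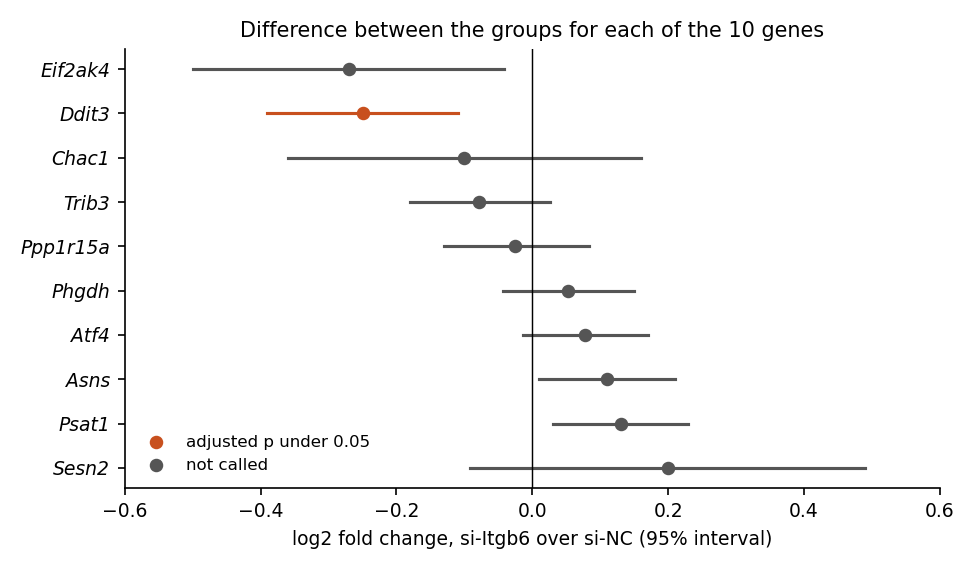
Log2 fold change of si-*Itgb6* over si-NC with its 95% interval for each of the 10 genes, from edgeR's quasi-likelihood test, with the gene that passed an adjusted p under 0.05 in orange. *Ddit3* at -0.25 is the one called, and the intervals of *Eif2ak4*, *Asns* and *Psat1* also leave out 0 without passing the adjustment.

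Among the sensors, *Eif2ak4* encodes GCN2, the eIF2α kinase that responds to uncharged tRNA. It had 27.3 and 27.5 CPM in si-NC and 23.1 and 22.4 CPM in si-*Itgb6*, from 446, 475, 358 and 369 counts. Both si-*Itgb6* libraries were below both si-NC libraries, at a fold of 0.830 (95% interval 0.709 to 0.972), but the adjusted p was 0.175 (log2 fold change -0.27, SE 0.11). By the study's own thresholds, an unadjusted p under 0.05 with a fold change over 1.2, *Eif2ak4* was lower and was the one gene of the 10 past them, since the fold change of *Ddit3* was smaller. Those thresholds called 5.20% of all genes tested lower and 4.37% higher. In FPKM the gene had 6.92 and 6.12 in si-NC and 4.46 and 4.83 in si-*Itgb6*, a log2 ratio of the means of -0.49 and so larger than in counts. The transcript length that links its counts to its FPKM was 3978 and 4506 bases in si-NC and 5202 and 4578 bases in si-*Itgb6*, a spread of 1.31-fold that 8.95% of the genes tested reached. For the other 9 genes that length varied by no more than 1.02-fold.

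The other eIF2α kinases, named here as a family whatever their values, were measured at similar depth. *Eif2ak3* (PERK, the sensor in the endoplasmic reticulum) had 15.3 and 14.2 CPM in si-NC and 14.7 and 13.2 CPM in si-*Itgb6*, with groups that overlapped. *Eif2ak2* (PKR, activated by double-stranded RNA) had a log2 fold change of -0.038 (SE 0.14) and *Eif2ak1* (HRI, the heme-regulated kinase) one of 0.026 (SE 0.11), and neither passed the test. In contrast, *Gcn1*, whose product sits on ribosomes and is needed to activate GCN2, fell. It had 138 and 118 CPM in si-NC and 90.1 and 94.3 CPM in si-*Itgb6*, a fold of 0.720 (95% interval 0.650 to 0.798, adjusted p = 0.000129 by edgeR's test). Whether the fold changes of *Gcn1* and *Eif2ak4* differ was not tested. The fall of *Gcn1* shrank to -0.35 on the log2 scale (adjusted p = 0.147) once si-NC replicate 2 was left out. *Gcn1* was the only call among 10 kinases and activators, beside 2.52% of all genes tested called lower.

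*Atf4*, the central transcription factor, lies on chromosome 15 from 80255184 to 80257541 and shares no exon with another gene in GENCODE vM21 (GRCm38). It had 1198 and 1275 CPM in si-NC and 1295 and 1315 CPM in si-*Itgb6*. The si-*Itgb6* libraries were above both si-NC libraries by a narrow margin, and the fold of 1.06 (95% interval 0.990 to 1.12, adjusted p = 0.370 by edgeR's test) did not pass. With 19542 to 22016 counts per library, the interval of this fit (-0.014 to 0.17 on the log2 scale) excludes a change as large as the *Ddit3* estimate of -0.25, in either direction. The interval of *Ddit3* itself, -0.39 to -0.11, reaches smaller sizes that the interval of *Atf4* includes. After correction for GC content and length, *Atf4* was at 0.15 in place of 0.078 (adjusted p = 0.0599 by edgeR's test). Without each library in turn it was at 0.033 to 0.13.

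*Ddit3*, which encodes CHOP, lies on chromosome 10 from 127290774 to 127296288. Its level was 110.1 and 112 CPM in si-NC and 89.9 and 96.5 CPM in si-*Itgb6*, from 1796, 1933, 1391 and 1588 counts. The si-NC libraries were nearly equal and both si-*Itgb6* libraries were below them, with means of 111 ± 1.27 CPM and 93.2 ± 4.66 CPM (SD, n = 2 libraries each). *Ddit3* fell to a fold of 0.839 (95% interval 0.762 to 0.925, log2 fold change -0.25, SE 0.069, adjusted p = 0.0271 by edgeR's test). Its promoter, shown above, holds a CCAAT box and no ATF4 element within the window. Relative to *Atf4*, the FPKM of *Ddit3* was 0.192 and 0.187 in si-NC and 0.147 and 0.154 in si-*Itgb6*, so the CHOP transcript was lower also as a share of that of its regulator. In bulk RNA, fewer cells with a transcript and less of it per cell cannot be told apart.
The call did not hold in every subset of libraries. The direction was kept without each library in turn (log2 fold change -0.20 to -0.30), but the adjusted p was 0.331 and 0.213 with si-NC replicate 2 or 3 left out, and 0.107 when si-*Itgb6* replicate 1 was. After correction for GC content and length, *Ddit3* was at -0.33 (adjusted p = 0.00644). Exons of *Ddit3* overlap those of *Mars1* (*Mars* in GENCODE vM21) and *Gm4189* on the opposite strand, and without strand information such reads cannot be told apart. A second identifier listed under the symbol *Ddit3* had 0 counts in every library. *Mars1*, the methionyl-tRNA synthetase, had 261 and 261 CPM in si-NC and 242 and 257 CPM in si-*Itgb6* (log2 fold change -0.066, adjusted p = 0.564).

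A second factor of the response was also called lower, and whether its fold change differs from that of *Ddit3* was not tested. *Cebpb* encodes C/EBPβ, a leucine zipper protein that can pair with CHOP and ATF4, and it had 98.5 and 99.7 CPM in si-NC and 73.1 and 60.6 CPM in si-*Itgb6*. Both si-*Itgb6* libraries were far below the nearly equal si-NC libraries, at a fold of 0.674 (95% interval 0.602 to 0.754, adjusted p = 3.24e-05 by edgeR's test). The call was kept without each library in turn (log2 fold change -0.44 to -0.71) and after correction for GC content and length, where the value was -0.36 (adjusted p = 0.012). Its exon overlaps that of *Tmem189* on the opposite strand. *Ddit3* and *Cebpb* were the 2 calls among 8 transcription factors of the response, beside 2.52% of all genes tested called lower. The median of the 8 was -0.00063.

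The 3 enzymes of amino acid synthesis were slightly higher in si-*Itgb6* and none passed the test. *Asns*, which makes asparagine from aspartate and glutamine, had 489.7 and 498 CPM in si-NC and 513 and 554 CPM in si-*Itgb6*, a fold of 1.08 (95% interval 1.01 to 1.16, adjusted p = 0.221 by edgeR's test). *Psat1* had 499 and 519 CPM in si-NC and 547 and 566 CPM in si-*Itgb6*, a fold of 1.09 (95% interval 1.02 to 1.17, adjusted p = 0.129). *Phgdh*, which takes the first step from glycolysis to serine, had 814 and 808 CPM in si-NC and 822 and 859 CPM in si-*Itgb6*, a fold of 1.04 (95% interval 0.971 to 1.11, adjusted p = 0.608). After correction for GC content and length, the log2 fold change of *Phgdh* was 0.14 in place of 0.052 (adjusted p = 0.0771 by edgeR's test). That of *Asns* was 0.080 in place of 0.11 and that of *Psat1* 0.11 in place of 0.13.
For each enzyme the log2 fold change was smaller in size than that of *Ddit3*. Without si-*Itgb6* replicate 1, *Asns* (log2 fold change 0.17, adjusted p = 0.0135) and *Psat1* (0.15, adjusted p = 0.0253) were called higher, and in no other fit with a library left out. None of the 15 genes of amino acid and one-carbon synthesis was called, with a median of 0.050, 10 above 0 and 5 below. The largest was *Cbs*, the enzyme that makes cystathionine, at 5.09 and 6.37 CPM in si-NC and 7.88 and 7.41 CPM in si-*Itgb6* (log2 fold change 0.41, SE 0.20, adjusted p = 0.274).

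*Trib3* and *Ppp1r15a* feed back on the response. *Trib3*, a pseudokinase that binds and restrains ATF4 and CHOP, had 424 and 394 CPM in si-NC and 383 and 391 CPM in si-*Itgb6*. The libraries did not overlap but came within a few CPM of each other, at a fold of 0.947 (95% interval 0.880 to 1.02, adjusted p = 0.442 by edgeR's test). After the correction for GC content and length its value was 0.026 in place of -0.079, so its direction was not settled. *Ppp1r15a* encodes GADD34, the stress-induced subunit that guides protein phosphatase 1 to eIF2α. It had 299 and 284 CPM in si-NC and 284 and 289.5 CPM in si-*Itgb6*, with overlapping groups and a fold of 0.982 (95% interval 0.911 to 1.06, adjusted p = 0.845). Its log2 fold change of -0.026 became 0.055 after that correction and 0.010 with si-NC replicate 2 left out. An exon of *Ppp1r15a* overlaps one of *Tulp2* on the opposite strand.

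The subunit that does the same work without stress, CReP, is encoded by *Ppp1r15b*, which rose. It had 81.4 and 100.2 CPM in si-NC and 121 and 104 CPM in si-*Itgb6*, a fold of 1.24 (95% interval 1.10 to 1.39, adjusted p = 0.0223 by edgeR's test). The highest si-NC library and the lowest si-*Itgb6* library were close, and the call was lost in several alternatives. DESeq2 gave the same log2 fold change of 0.31 with an adjusted p of 0.358. The value dropped to 0.17 (adjusted p = 0.634) with si-NC replicate 2 left out and to 0.20 (adjusted p = 0.129) when si-*Itgb6* replicate 1 was. *Eif2s2*, the β subunit of eIF2, rose as well, from 1184 and 1207 CPM to 1303 and 1408 CPM, a fold of 1.13 (95% interval 1.06 to 1.21, adjusted p = 0.0171 by edgeR's test). After correction for GC content and length its log2 fold change was 0.080 in place of 0.18 (adjusted p = 0.376). With si-NC replicate 2 or 3 left out it stayed at 0.17 and 0.20, with adjusted p-values of 0.440 and 0.150. These were the 2 calls among 13 genes of eIF2, its exchange factor eIF2B and its phosphatase, with a median of 0.035. Of all genes tested, 2.11% were called higher.

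*Chac1* and *Sesn2*, lowly expressed outputs of ATF4, could be measured less finely. *Chac1*, which breaks down glutathione, had 17.2 and 19.6 CPM in si-NC and 16.9 and 17.4 CPM in si-*Itgb6*, and the groups overlapped. Its fold of 0.932 had a 95% interval from 0.777 to 1.12 (adjusted p = 0.730 by edgeR's test), from 262 to 338 counts per library. *Sesn2*, a stress-induced inhibitor of mTORC1, had 13.3 and 12.8 CPM in si-NC and 16.3 and 13.7 CPM in si-*Itgb6*. Replicate 1 of si-*Itgb6* was the highest, at 253 counts beside 217 to 225 in the other libraries. The fold was 1.15 (95% interval 0.939 to 1.41, adjusted p = 0.489), and the log2 fold change went from 0.20 to 0.066 without si-*Itgb6* replicate 1. The interval of *Chac1* includes a fall as large as that of *Ddit3*, and the interval of *Sesn2* a rise of that size.

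One other stress output of ATF4 and CHOP, of 16 in the list, passed the test, beside 2.52% of all genes tested called lower. *Ero1a*, the oxidase that drives disulfide bond formation in the endoplasmic reticulum and is known to respond to hypoxia as well, fell from 2496 and 2191 CPM in si-NC to 1845 and 1900.3 CPM in si-*Itgb6*. The fold was 0.799 (95% interval 0.746 to 0.855, adjusted p = 8.96e-05 by edgeR's test), but it was -0.23 on the log2 scale (adjusted p = 0.173) once si-NC replicate 2 was left out. Among 9 amino acid transporters under ATF4, *Slc38a2* (SNAT2, which imports small neutral amino acids) rose from 211 and 263 CPM to 325 and 284 CPM, a fold of 1.28 (95% interval 1.16 to 1.42, adjusted p = 0.00169). DESeq2 gave the same log2 fold change of 0.36 with an adjusted p of 0.282, whereas leaving out si-NC replicate 2 lowered it to 0.21 (adjusted p = 0.416). The median of the 9 transporters was 0.0044, with *Slc38a2* the only call, beside 2.11% of all genes tested called higher.

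**Figure D3:**
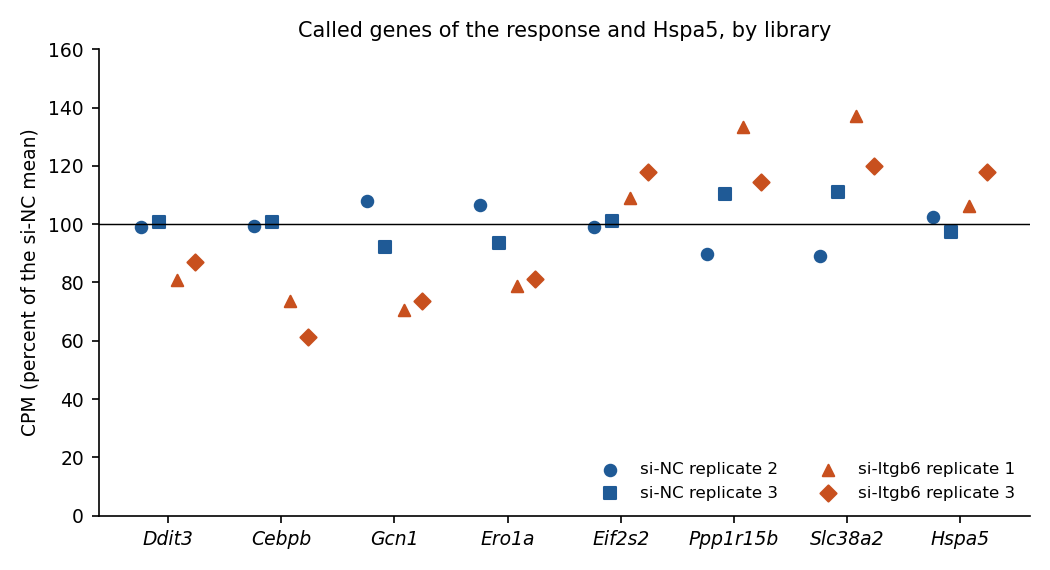
CPM of each library as a percent of the si-NC mean for *Ddit3*, for the 6 other genes of the response that passed an adjusted p under 0.05 and for *Hspa5*, with si-NC in blue and si-*Itgb6* in orange. *Ddit3*, *Cebpb*, *Gcn1* and *Ero1a* lie below the si-NC libraries in both si-*Itgb6* libraries, and the si-NC libraries of *Gcn1*, *Ero1a*, *Ppp1r15b* and *Slc38a2* lie further apart than those of *Ddit3*.

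The tRNA synthetases load amino acids onto tRNA, and ATF4 activates many of their genes. None of 13 synthetases under ATF4 was called, with log2 fold changes from -0.07 to 0.17 and a median of -0.016. The largest belonged to *Cars*, the cysteinyl-tRNA synthetase, at 271 and 305 CPM in si-NC and 318 and 329.7 CPM in si-*Itgb6* (adjusted p = 0.0775 by edgeR's test). None of 8 other cytosolic synthetases was called either, with a median of -0.0022. *Farsb*, a subunit of phenylalanyl-tRNA synthetase, had the largest of these, at 102 and 106 CPM in si-NC and 118 and 119 CPM in si-*Itgb6* (log2 fold change 0.19, adjusted p = 0.0934).

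Over the 74 genes of the wider response beyond the 10 genes, 3 were called lower (*Gcn1*, *Cebpb* and *Ero1a*), 3 were called higher (*Ppp1r15b*, *Eif2s2* and *Slc38a2*) and 68 were not called, beside 2.52% and 2.11% of all genes tested called lower and higher. The median was 0.023, with 32 genes below 0 and 42 above. With si-NC replicate 2 left out the counts were 1 lower (*Cebpb*) and 0 higher, in a fit that called only 6 genes lower and 8 higher among all genes tested. By DESeq2 the higher calls numbered 1, beside 146 over all genes tested.

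**Figure D4:**
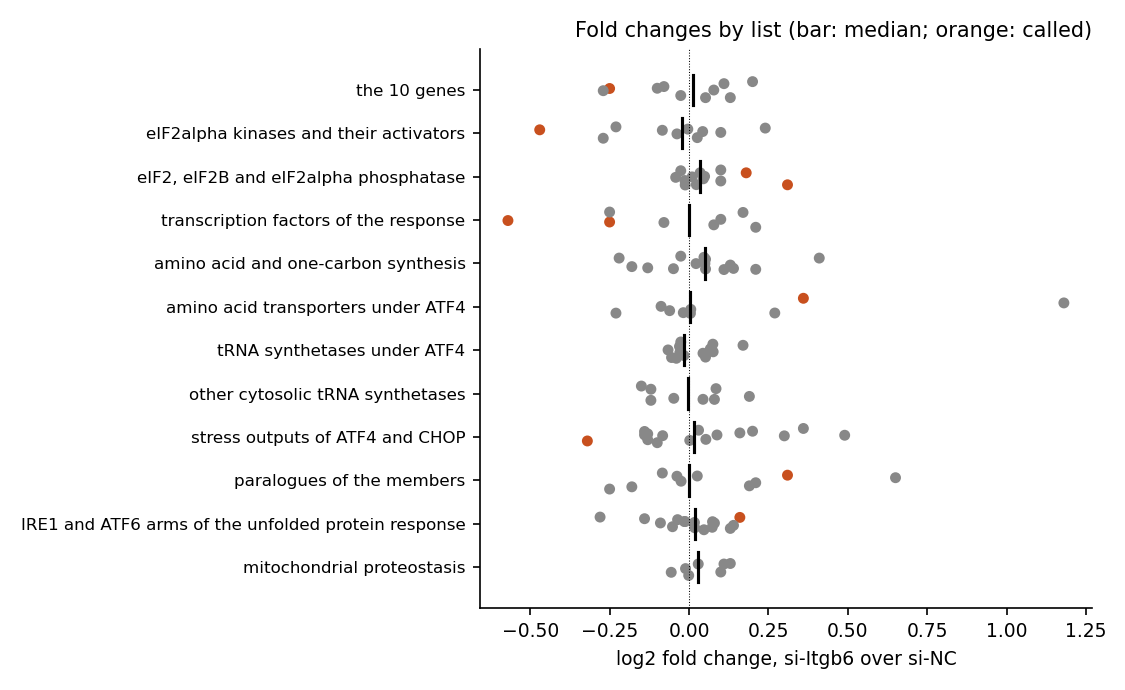
Log2 fold change of si-*Itgb6* over si-NC for each gene of the 10 and of each list, with the median of a list as a black bar and genes with an adjusted p under 0.05 in orange, where members also appear in the lists they belong to. The medians all lie close to 0 and the called genes stand on both sides, while the point at 1.18 is *Slc7a3*, named here after its value was seen, which had at most 0.79 CPM in any library (adjusted p = 0.382 by edgeR's test).

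The neighbouring arms of the unfolded protein response, run by IRE1 and ATF6, held 1 call among 16 genes, beside 2.11% of all genes tested called higher. *Hspa5*, which encodes the chaperone BiP, rose from 1796 and 1705 CPM in si-NC to 1858 and 2063 CPM in si-*Itgb6*, a fold of 1.12 (95% interval 1.05 to 1.2, adjusted p = 0.0392 by edgeR's test). *Hspa5* and *Ddit3*, both classical transcripts of endoplasmic reticulum stress, were thus called in opposite directions. The *Hspa5* call was lost after correction for GC content and length (0.14 on the log2 scale, adjusted p = 0.0948) and with si-NC replicate 2 or 3 left out (0.20 and 0.13, adjusted p = 0.331 and 0.396), at fold changes close to the 0.16 of the full fit. Leaving out si-*Itgb6* replicate 3 gave a log2 fold change of 0.088 (adjusted p = 0.191). None of 7 genes of mitochondrial proteostasis was called. The largest there was *Hspd1*, the mitochondrial chaperonin, at 497 and 485 CPM in si-NC and 509 and 569 CPM in si-*Itgb6* (log2 fold change 0.13, adjusted p = 0.139).

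Leaving out each library in turn changed no sign for 9 of the 10 genes. *Ppp1r15a* was the exception, between -0.059 and 0.010. *Eif2ak4* stayed between -0.24 and -0.29 and *Ddit3* between -0.20 and -0.30, while *Chac1* ranged from -0.19 to -0.0034 and *Sesn2* from 0.066 to 0.33, so the low outputs moved most with the choice of libraries.

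**Figure D5:**
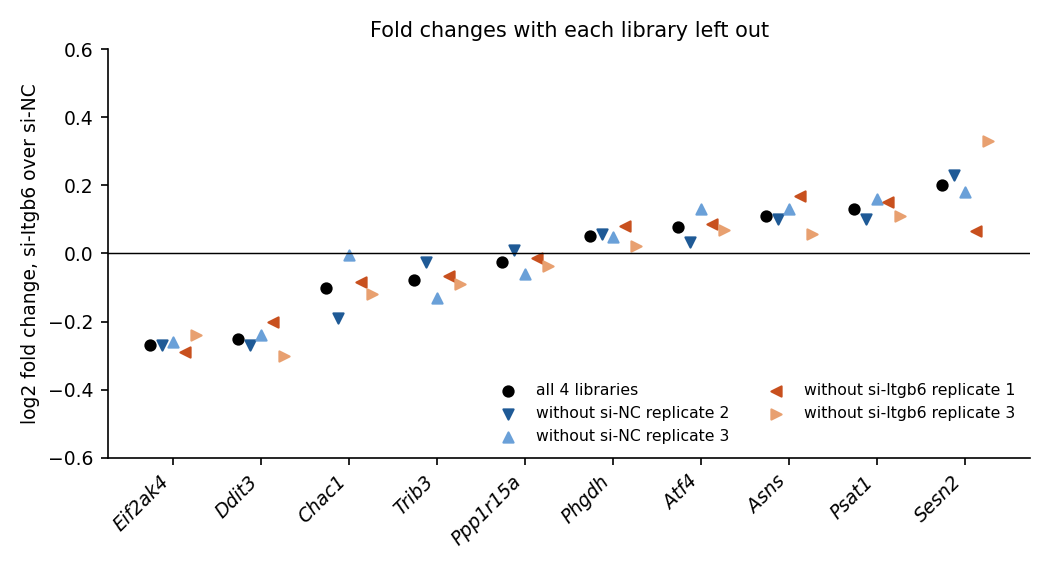
Log2 fold change of si-*Itgb6* over si-NC for each of the 10 genes with all 4 libraries (black) and with each library left out. *Eif2ak4* and *Ddit3* stay well below 0 in all 5 fits, and *Sesn2* spreads from 0.066 to 0.33.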

How the data were processed

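Libraries of polyadenylated RNA were paired-end and carried no strand. The authors deposited estimated counts per gene, not normalized (not whole for 1447 to 1500 genes a library; whole for the 10 genes). FPKM values were also deposited, made by the authors; dividing counts by them gives a length that can vary with the isoforms. The aligner, counter and genome build are not given in the sources used here. The study's methods say that samples were optimized after clustering. Estimated counts were rounded. Genes kept by filterByExpr (minimum count 10, minimum total 15; 11727 of 22063) were normalized by TMM and tested in edgeR 4.0.16 (quasi-likelihood; R 4.3.3), with Benjamini-Hochberg adjustment; the call threshold was an adjusted p of 0.05. CPM values are TMM-normalized, and FPKM values entered no test. The biological coefficient of variation was 0.0551. Replicates differed beyond sampling noise (chi-square per gene 3.15 and 4.0). The script was tested on simulated counts. Alternatives were DESeq2 1.42.0, RLE factors, library size only, other filters, GC and length trends as offsets, the study's thresholds and leaving out each library; the FPKM ratio was added after seeing the data. The 10 genes and all lists were chosen with earlier results of these data known. The text names the 10 genes, *Itgb6*, each called gene of a list, or else the one with the largest fold change; *Eif2ak1*, *Eif2ak2*, *Eif2ak3* and *Mars1* were added outside that rule. Loci are from GENCODE vM21 (99.6% of genes found), which may not be the authors' annotation. One marker list is not reported here.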

Additional observations from a re-analysis of the deposited data

How the results depend on the processing

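Of 208 alternative values for 18 genes, 178 kept the direction and the call, 4 of them from DESeq2 with no adjusted p, while 21 lost a call and 3 gained one. Without each library in turn, the 10 genes gave 0 to 1 lower and 0 to 2 higher, the wider response 1 to 4 lower and 0 to 4 higher, and the median of the 10 genes was -0.0081 to 0.027. Higher calls of the wider response were 1 with DESeq2, 5 with no filter and 5 with the study's thresholds. The median was -0.0018 with library size only and 0.067 with the GC and length trends removed, when *Trib3* was at 0.026 and *Ppp1r15a* at 0.055. Without each library, *Ppp1r15a* was at -0.059 to 0.010 and *Itgb6* at -0.10 to 0.091; the cause was not tested. The order of levels was kept in all alternatives except without si-NC replicate 3, where 8 of 10 genes kept their place. Over all genes, calls lower and higher were 295 and 247, against 156 and 146 with DESeq2 and 104 and 111 with the GC and length trends removed. A fit without 1 library leaves a group of 1, assumed to vary like the other. Depth limits *Chac1*, *Eif2ak4* and *Sesn2*. No paired analysis was possible because the groups share only 1 replicate number, 3.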

Other observations

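Among 10 paralogues of the 10 genes, *Ppp1r15b* was the only call, beside 2.11% of all genes tested called higher. It is the same call as above, lost in several alternatives. The median log2 fold change of the paralogues was 0.00045. Outside the response, 2 epithelial genes among the marker lists passed edgeR's test. *Aqp1*, the water channel of the proximal tubule, rose from 23.7 and 27.6 CPM in si-NC to 38.8 and 38.4 CPM in the libraries labelled si-*Itgb6*, a fold of 1.5 (95% interval 1.3 to 1.74, adjusted p = 0.000617). *Krt8*, a keratin of simple epithelia, fell from 781 and 781 CPM to 685 and 677 CPM, a fold of 0.872 (95% interval 0.817 to 0.931, adjusted p = 0.00881). The summed level of 5 epithelial markers was 2588 to 2611 CPM in si-NC and 2368 to 2425 CPM in si-*Itgb6*. All 5 had a log2 fold change below 0, with *Krt8* the only call. Of all 11727 genes tested, 5858 were below 0, 2.52% were called lower and 2.11% were called higher. The 5 genes had a GC content of 50.7% to 57.1%, and across genes the log2 fold change fell with GC content. The part of GC content in the values of these 5 genes was not tested. For *Aqp1* and *Krt8* no value is given after the GC and length correction or with a library left out. Of 6 markers of other tubule segments, *Umod*, *Aqp2* and *Calb1* were at 0 counts in all 4 libraries, *Slc12a1* and *Slc12a3* had at most 2 counts and *Scnn1b* had 2 to 16 counts (log2 fold change 0.87, adjusted p = 0.545 by edgeR's test). Summed endothelial markers were at most 4.31 CPM and summed fibroblast and mesangial markers at most 4.13 CPM in any library.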
